A study of Mus musculus with 2 samples.

Results

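The IkB family and A20, with its partner ABIN-1, include main inhibitors that NF-kB induces against itself. They were examined here as 8 genes chosen by symbol: Nfkbia, Nfkbib and Nfkbie, Nfkbiz, Nfkbid and Bcl3, and Tnfaip3 and Tnip1. Each symbol was mapped to its gene identifier through the names in the deposited transcript tables, and all 8 were found among 55536 mouse genes. RNA of the nucleoplasm, the nuclear fraction that is soluble, was sequenced from bone-marrow-derived macrophages of C57BL/6J mice after removal of ribosomal RNA. The cells had received lipid A, the part of bacterial lipopolysaccharide that TLR4 senses, at 100 ng/ml for 20 min. There was 1 group of 2 libraries, and no unstimulated library was analysed here, so no value below measures induction. The RNA input was 1 µg for replicate 1 and 500 ng for replicate 2, and both had a labelled size range of 250 to 400. The labels give neither the age nor the sex of the mice and no genotype beyond the strain. Both libraries carry 1 donor identifier, and nothing in the labels says whether they are separate animals or cultures, so n = 2 stands for libraries, and the spread between them may be technical. Replicate and amount of RNA cannot be told apart.

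In resting cells the classical IkB proteins hold NF-kB dimers in the cytoplasm. Signalling from TLR4 activates the IKK kinases, which mark these proteins for degradation, and the freed NF-kB enters the nucleus and switches on genes that include its own inhibitors. The nuclear IkB proteins act differently, binding NF-kB dimers on DNA and raising or lowering the transcription of chosen targets. A20 acts upstream of IKK, where it edits ubiquitin chains on signalling proteins and is aided by the ubiquitin-binding adaptor ABIN-1.

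The promoters of the genes are shown first, because several of these inhibitors are known to be driven through NF-kB sites near their start. RefSeq windows of the GRCm38.p6 build, from 250 bases before to 50 after a start, matched 7 of the 8 genes with 10 windows, and Nfkbiz was not among them. The letters GGGNNNTTCC were searched on both strands, and on the reverse strand the printed letters begin with GGAA and end with CCC. A match was held by 5 of the 7 genes, and by 6 of their 10 windows. Over all promoters, 6.31% of 27025 genes and 5.56% of 32851 windows held one. The windows of the 2 members with the highest mean TPM, Nfkbia (chr12:55492598-55492897, minus strand) and Tnfaip3 (chr10:19015361-19015660, minus strand), are printed 5′ to 3′ along the gene, with each match in capitals.
Nfkbia: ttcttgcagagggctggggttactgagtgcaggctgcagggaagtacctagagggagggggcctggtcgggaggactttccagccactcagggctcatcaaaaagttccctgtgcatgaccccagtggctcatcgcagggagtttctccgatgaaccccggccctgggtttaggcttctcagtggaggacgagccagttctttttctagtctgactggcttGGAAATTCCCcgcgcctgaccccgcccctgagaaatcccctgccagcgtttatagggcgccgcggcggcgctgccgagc
Tnfaip3: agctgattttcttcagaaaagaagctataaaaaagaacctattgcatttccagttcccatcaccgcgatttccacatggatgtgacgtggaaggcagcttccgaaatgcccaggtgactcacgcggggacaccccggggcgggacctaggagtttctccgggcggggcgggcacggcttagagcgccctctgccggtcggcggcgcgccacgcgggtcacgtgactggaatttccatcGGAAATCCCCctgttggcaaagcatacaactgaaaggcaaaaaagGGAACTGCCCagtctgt
In Nfkbia the match began at -29, counted from the annotated start. In the Tnfaip3 window, which is that of Tnfaip3-201, one match began at -12 and the other at 34. Stretches around the matches of the other genes, and of the second Tnfaip3 start, are printed next to show how the spacer and the flanks differ.
Tnfaip3 second start: ctgaaaacgtGGGTTATTCCcctcctcctc
Nfkbid second start: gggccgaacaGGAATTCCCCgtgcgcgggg
Nfkbie: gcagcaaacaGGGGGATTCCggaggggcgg
Tnip1: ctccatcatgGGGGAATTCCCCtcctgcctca
These lie at chr10:19012034-19012063 (minus strand, match from -90), chr7:30422215-30422244 (plus strand, match from -181), chr17:45555584-45555613 (plus strand, match from -106) and chr11:54962977-54963008 (minus strand, from -58). The capitals of Tnip1 hold 1 match on each strand, which overlap. The tighter letters GGGNNTTTCC, a subset of the first search, were held by Nfkbia and Tnfaip3, so by 2 of 7 genes, against 1.89% of all genes. The published kB consensus, which is looser and overlaps the first search, was held by 6 of 7 genes, Bcl3 being the addition, against 9.55% of all genes. No searched form was found in the single Nfkbib window. A match describes letters in a window and was not tied to binding by any measurement here.

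All 8 genes were present in both libraries, above 5 TPM (a level scaled by transcript length and library, which can be set side by side between genes). Their median was 80.55 TPM in replicate 1 and 36.6 TPM in replicate 2. Together they took 1660 TPM in replicate 1 and 619 TPM in replicate 2, or 0.379% and 0.156% of all counts. Nfkbia, Tnfaip3 and Nfkbiz made up most of this sum in each library, and Nfkbid stood between these 3 and the remaining 4.

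Nfkbia encodes IkB-alpha, the classical inhibitor that is known to be lost and remade fastest. The gene spans 3.24 kb (chr12:55489410-55492647, mm10, minus strand) and overlaps no other annotated gene. It stood at 616 TPM in replicate 1 against 191 TPM in replicate 2, from 15443 and 5867 counts, and averaged 404 ± 300 TPM (SD, n = 2). This placed it at rank 28 of 22015 nuclear-encoded protein-coding genes in replicate 1 and at rank 116 in replicate 2.

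Nfkbie encodes IkB-epsilon, a later-acting classical inhibitor. It spans 7.47 kb (chr17:45555703-45563169, plus strand) and overlaps no other gene. Its level was 46.55 TPM in replicate 1 and 18.2 TPM in replicate 2 (32.4 ± 20.0 TPM, SD, n = 2), at ranks 1287 and 2688.
Nfkbib encodes IkB-beta, which is known to be degraded more slowly than IkB-alpha. It was the lowest of the 8 genes in both libraries. Its level was 21.9 TPM in replicate 1 and 8.09 TPM in replicate 2 (15.0 ± 9.75 TPM, SD, n = 2), from 482 and 216 counts. The gene (chr7:28758251-28767512, minus strand) overlaps 2 genes of the opposite strand, Ccer2 over 718 bases and Sirt2 over 778 bases. Sirt2 had 1170 and 1260 counts, but the only Nfkbib exon in its overlap is the first of Nfkbib-203. That transcript was listed at 0 in both libraries in the quantification used for these levels, and at 7.46 and 5.59 TPM in the other. The Ccer2 overlap lies in the last exon of Nfkbib-201, and Ccer2 had 18.2 and 14.8 counts. The sources used here do not give the strand setting, so reads in these shared exon stretches may have been split between the genes. The Nfkbib value is uncertain to that extent.

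Among the nuclear IkB genes, Nfkbiz was the most abundant. It encodes IkB-zeta, a cofactor needed for a set of later inflammatory genes, and spans 27.5 kb (chr16:55811375-55838899, minus strand). Its level was 387 TPM in replicate 1 and 123 TPM in replicate 2 (255 ± 187 TPM, SD, n = 2), at ranks 57 and 226. With 23936 counts in replicate 1 it drew more counts than Nfkbia but had less TPM, which divides by length.
Nfkbid encodes IkB-NS, a nuclear member that binds NF-kB on cytokine genes. It spans 7.02 kb (chr7:30421732-30428746, plus strand). Its level was 115 TPM in replicate 1 and 54.9 TPM in replicate 2 (84.7 ± 42.2 TPM, SD, n = 2), at ranks 381 and 667.
Bcl3 encodes the nuclear IkB protein BCL-3, which binds NF-kB dimers that lack an activation domain of their own. It had 33.2 TPM in replicate 1 and 13.4 TPM in replicate 2 (23.3 ± 14.0 TPM, SD, n = 2), from 614 and 319 counts. The gene (chr7:19808462-19822770, minus strand, 14.3 kb) overlaps 2 antisense genes, Gm16175 and Gm16174, the second of which had 34 and 8 counts. Neither Nfkbiz nor Nfkbid overlaps another annotated gene.

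Tnfaip3, the gene for A20, spans 14.7 kb (chr10:19000910-19015657, minus strand) and overlaps no other gene. It stood at 402 TPM in replicate 1 against 194 TPM in replicate 2 (298 ± 147 TPM, SD, n = 2), at ranks 52 and 108. In replicate 2 it was the highest of the 8 genes, and in replicate 1 it was second to Nfkbia.
Tnip1 encodes ABIN-1 and is the longest of the 8 genes, at 52.1 kb (chr11:54910785-54962917, minus strand). Its level was 38.6 TPM in replicate 1 and 16.3 TPM in replicate 2 (27.4 ± 15.7 TPM, SD, n = 2), at ranks 1627 and 2936. A processed pseudogene, Gm12230, lies within it on the opposite strand, in a stretch that holds no exon of a listed Tnip1 transcript. It had 170 counts in replicate 1 and 29 in replicate 2.

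**Figure D1:**
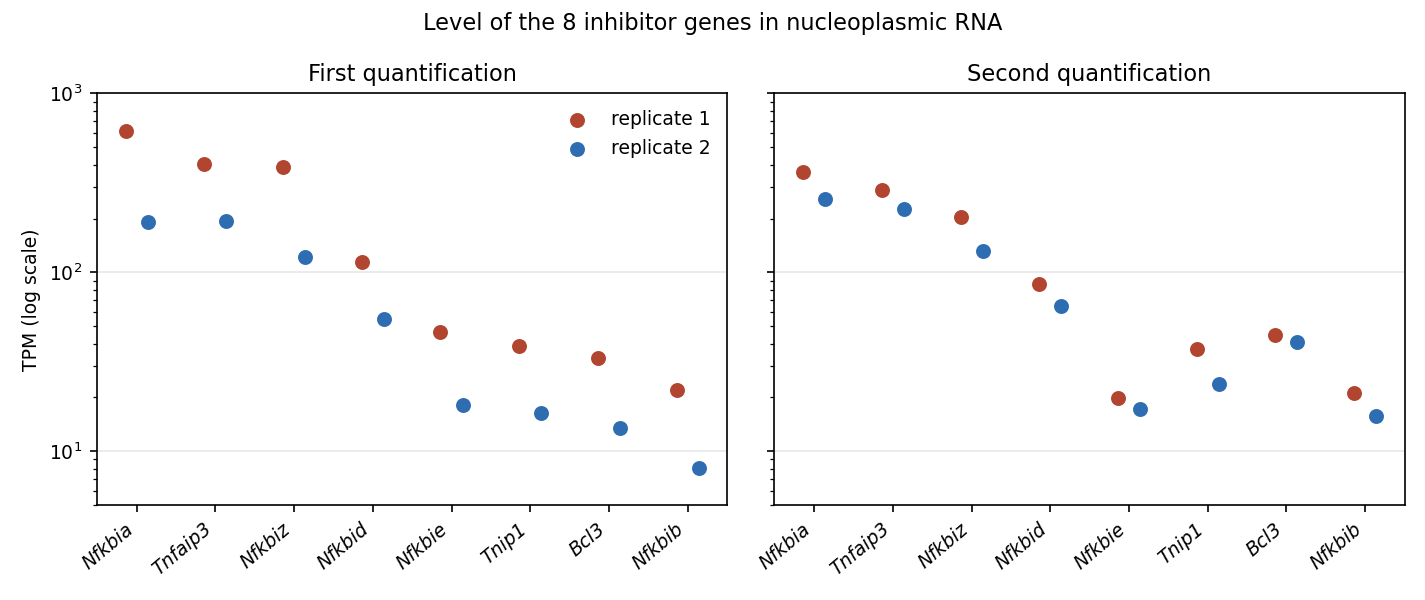
Level of each gene in TPM (log scale) in replicate 1 and replicate 2, in the first quantification (left) and the second (right). Nfkbia, Tnfaip3 and Nfkbiz are the 3 highest in every library and table, and replicate 1 is above replicate 2 for all 8 genes in both.

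The order of the 8 levels was the same in both libraries, except for the first 2 places. Nfkbia was 1.53-fold above Tnfaip3 in replicate 1 and 0.985-fold in replicate 2. Along the order by mean TPM (Nfkbia, Tnfaip3, Nfkbiz, Nfkbid, Nfkbie, Tnip1, Bcl3, Nfkbib), only the step from Nfkbid to Nfkbie exceeded the larger SD of the 2 neighbours, with a gap of 52.3 TPM and an SD of 42.2 TPM. The other 6 steps were within that spread. In the second quantification the first 4 places were the same, Bcl3 came next, then Tnip1, and Nfkbie and Nfkbib both averaged 18.5 TPM. These SDs mostly hold a difference that all 8 genes share, so a within-library view is given too. Nfkbid was 2.46-fold above Nfkbie in replicate 1 and 3.01-fold in replicate 2, and Nfkbiz was 3.38-fold and 2.23-fold above Nfkbid. As a share of the 8 genes' TPM, Nfkbia had 37.1% in replicate 1 and 30.9% in replicate 2. Tnfaip3 had 24.2% in replicate 1 and 31.4% in replicate 2, and Nfkbiz had 23.3% and 19.8%. The other 5 genes each had small shares, from 1.32% (Nfkbib) to 6.90% (Nfkbid) in replicate 1 and from 1.31% to 8.87% in replicate 2. With 2 libraries there is no profile across conditions, so no genes of like pattern were sought.

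All 8 genes were higher in replicate 1 than in replicate 2. The comparison sets 1 library against 1 library of the same group, so it carries no p-value, and in bulk RNA fewer cells that express a gene and less RNA per cell cannot be told apart. Counts were scaled by edgeR's TMM factors fitted on all genes, and the 95% intervals are exact binomial ones that cover counting error only. Past 2-fold stood 4 of the 8 genes, where 3.98% of the 15557 genes whose mean scaled count reached 10 did so in that direction. In the opposite direction it was 0 of 8 genes, against 4.83% of all genes. Past 1.5-fold stood 7 of 8, against 11.2% of all genes. All 8 genes met the count minimum. Taken as replicate 1 over replicate 2, the log2 ratio had a median of 1.05 over the 8 genes and of -0.00344 over all tested genes, of which 49.7% were higher in replicate 1. That these genes differ between the libraries was known when they were chosen.

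Nfkbia had the largest log2 ratio, 1.34 (1.29 to 1.38), and Nfkbiz had 1.28 (1.24 to 1.31). Tnfaip3 had 1.12 (1.09 to 1.16). The 3 most abundant members thus were among the 4 past 2-fold, with intervals that lie wholly above a log2 ratio of 1. Nfkbib was the member just past the 2-fold limit, with 1.10 (0.86 to 1.34), and Nfkbie was just short of it, with 1.00 (0.90 to 1.10). The intervals of both span the limit, so neither was placed on one side of it by its counts. Bcl3 had 0.88 (0.69 to 1.08) and Nfkbid 0.82 (0.73 to 0.90). Tnip1, at 0.58 (0.42 to 0.75), was the only member inside 1.5-fold, and its interval does not meet those of the other members except Bcl3 and Nfkbid, whose lower bounds lie below 0.75.

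Several measured features of the libraries moved with this difference. Mitochondrial RNAs had 3.19% of counts in replicate 1 and 10.5% in replicate 2, and nuclear-encoded protein-coding genes took 28.9% and 21.3% of TPM. The part of these in the result was not tested. The transcripts of the 8 genes have a GC content of 48.1% to 59.8%, against a median of 48.8% over all genes. With the trend of the ratio on GC content taken out, the members' median was 0.79 and all 8 stayed higher in replicate 1. Then 3 were past 2-fold, since Nfkbib had 0.76, against 3.53% of 15549 genes. Without scaling beyond TPM, the median ratio of all genes was itself 0.35, and that of the 8 genes was 1.32. In the second quantification the members' median was 1.07. There 6 of 8 were past 2-fold, against 4.54% of 24470 genes, the additions being Nfkbid with 1.02 and Tnip1 with 1.03.

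**Figure D2:**
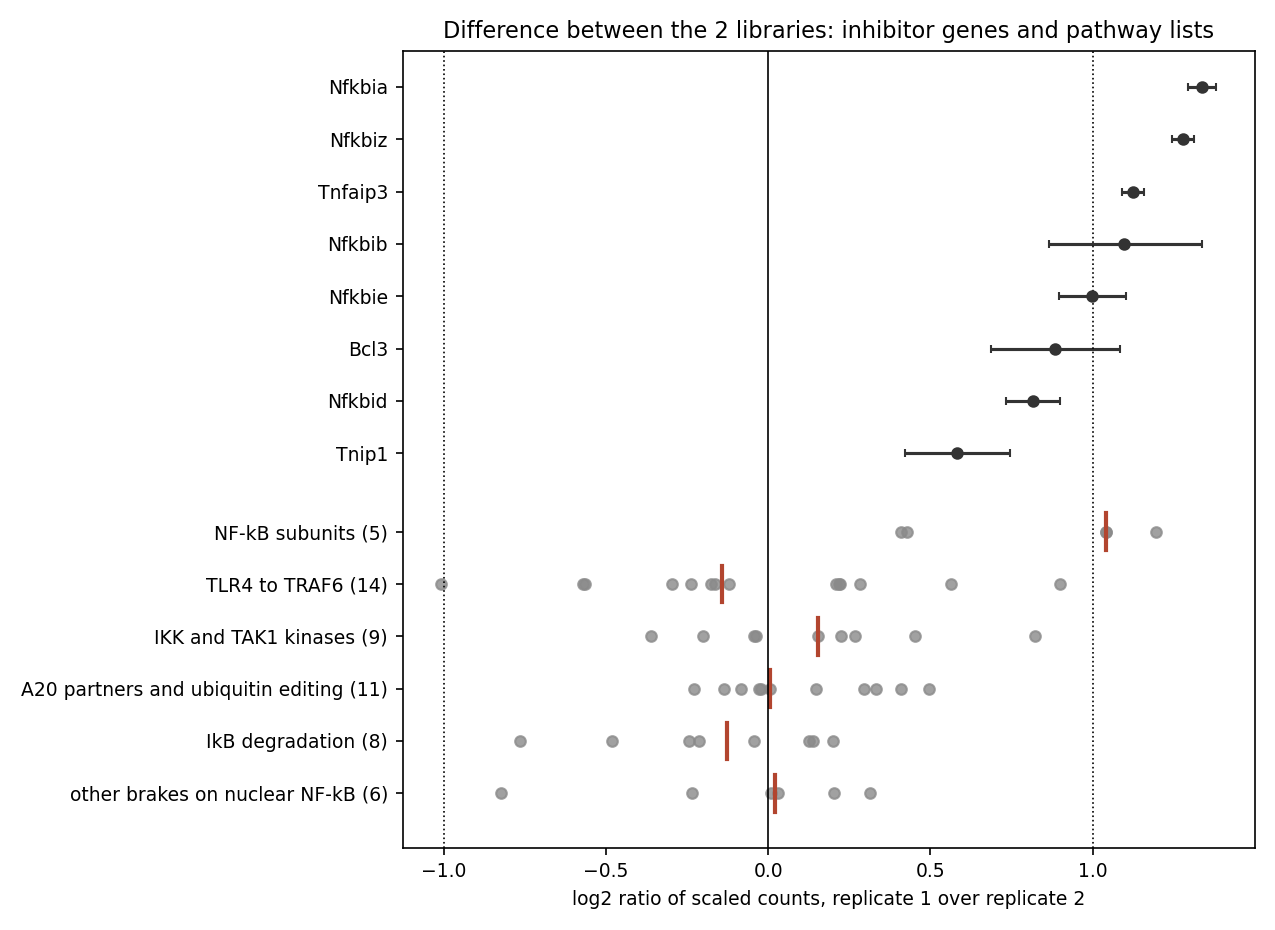
Log2 ratio of scaled counts, replicate 1 over replicate 2, for each of the 8 genes with its exact 95% counting interval (black) and for the genes of 6 pathway lists (grey points, with the list median as a red bar and the number of genes in parentheses). Dotted lines mark 2-fold. All 8 inhibitor genes lie right of 0, while the medians of the lists other than the NF-kB subunits lie between -0.14 and 0.15.

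The rest of the pathway gives the setting of the 8 genes. Of 53 genes in 6 lists, 52 reached 1 TPM in both libraries. The levels and the highest and lowest gene of each list are those of the first quantification, by mean TPM, and the second changed some of these places. The NF-kB subunit genes were the list whose ratios were nearest to those of the inhibitors, with 5 of 5 higher in replicate 1, 3 past 2-fold and a median log2 ratio of 1.04. Those 3 were Relb, with 1.20, Rela, with 1.04, and Nfkb2, with 1.04. With the GC trend taken out they had 0.89, 0.74 and 0.73, so none was then past 2-fold. By level, Nfkb1, the precursor of a DNA-binding subunit, was the highest at 49.05 TPM in replicate 1 against 28.4 TPM in replicate 2, and Relb was the lowest at 24.2 and 9.03 TPM. In the second quantification Rela was the highest, at 36.2 and 33.3 TPM, and Nfkb1 had 21.8 and 24.2 TPM. Every subunit gene was thus below Nfkbid in both libraries.

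Upstream of the inhibitors the list medians lay nearer to 0. In the list from TLR4 to TRAF6, 0 of 14 genes were past 2-fold higher in replicate 1 and 1 was past it in the other direction, with a median of -0.14. That gene was Ly96, the gene for the lipid A-binding partner of TLR4, at 9.66 TPM in replicate 1 against 15.1 TPM in replicate 2, from 79 and 153 counts. Its log2 ratio was -1.01, but -0.77 with the GC trend taken out, -0.91 with library totals and -0.64 with TPM ratios, all inside 2-fold. Cd14, a co-receptor, was the highest at 364 and 308 TPM, and the adaptor gene Tirap the lowest at 2.43 and 2.38 TPM. Of the 14, 6 were higher in replicate 1, the largest log2 ratio being that of Myd88, 0.90, near that of Bcl3. With TPM ratios, where the median of all genes was itself 0.35, Myd88 had 1.25 and Irak2 1.16, both past 2-fold.
Of the 9 IKK and TAK1 kinase genes, 0 passed 2-fold in either direction and the median was 0.15. Ikbke, an IKK-related kinase gene, was the highest at 276 TPM in replicate 1 against 127 TPM in replicate 2, and Tab3 the lowest at 5.02 and 2.63 TPM. Higher in replicate 1 were 5 of the 9. The log2 ratio of Ikbke was 0.82, as was that of Nfkbid, and 1.12 with TPM ratios, past 2-fold. Of 11 genes for A20 partners and other ubiquitin editors, 0 passed 2-fold and the median was 0.00611. Tnip3, which encodes another A20-binding adaptor, was the highest of these at 188 TPM in replicate 1 against 101 TPM in replicate 2, above its relative Tnip1 in both libraries. Otud7b was the lowest at 7.81 and 6.23 TPM. By scaled counts 6 of the 11 genes were higher in replicate 1, and Rnf31 passed 2-fold with TPM ratios, with 1.26.
The machinery that degrades IkB proteins showed 0 of 8 genes past 2-fold and a median of -0.13. Its highest member was Ube2d3, a ubiquitin-conjugating enzyme gene, at 94.8 TPM in replicate 1 against 87.35 TPM in replicate 2, and its lowest was Skp1a at 7.92 and 6.60 TPM. Other brakes on nuclear NF-kB were low in both libraries, with 0 of 6 past 2-fold and a median of 0.0199. By mean TPM the lowest was Nkrf, at 1.05 TPM in replicate 1 against 0.97 TPM in replicate 2, and the highest was Nkiras2, which had 6.58 TPM in replicate 1 and 10 TPM in replicate 2. In replicate 1 alone Nkiras1, at 8.68 TPM, and Nfkbil1, at 6.98 TPM, were above Nkiras2. All 6 were below Nfkbib in replicate 1, and in replicate 2 Nkiras2 alone was above it.

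Which transcripts carried these levels was read from the transcript tables, which hold 42 transcripts of the 8 genes. Nuclear RNA contains unspliced and partly spliced RNA, and 6 of the 8 genes have a transcript that the annotation classes as retained intron. Nfkbib and Nfkbiz have none of this class. The share of a gene's TPM on such transcripts is given here. It leaves out intron sequence that no annotated transcript holds. TPM divides by length, so a share of TPM weights short transcripts more than a share of counts does.

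Nfkbie had the largest share, 78.8% in replicate 1 and 82.1% in replicate 2 (80.4% ± 2.29, SD, n = 2). It lay on 1 transcript, Nfkbie-202, which is 3006 bases long, holds all 610 bases of intron 2 of 5 and had 36.7 TPM in replicate 1 against 14.95 TPM in replicate 2. The fully spliced Nfkbie-201 was at 8.13 TPM in replicate 1 and was listed at 0 in replicate 2, where Nfkbie-203 had 3.27 TPM. The second quantification did not show this change, with Nfkbie-201 at 6.26 and 6.91 TPM and Nfkbie-203 at 0.07 and 0.16 TPM. By counts the share was 82.5% and 85.6%, so length did not alter it much.
Tnfaip3 followed with 64.3% in replicate 1 and 77.2% in replicate 2 (70.7% ± 9.12, SD, n = 2), and by counts with 57.7% and 76.1%. It has 2 such transcripts. Tnfaip3-205 (6199 bases) holds introns 5 and 7 of 8 whole, of 1131 and 699 bases, and held 49.9% of the gene's counts in replicate 1 and 61.6% in replicate 2. Tnfaip3-206 (764 bases) holds 510 of the 3145 bases of intron 2. It had 162 TPM in replicate 1 and 107 TPM in replicate 2 but 7.74% and 14.4% of counts. Set against replicate 2, replicate 1 was higher by log2 0.79 in the intron-retaining TPM of Tnfaip3 and by log2 1.70 in the TPM of its other transcripts.

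The edges of the introns that these transcripts and Nfkbid-204 hold whole are printed to identify them, as 10 bases of exon in lower case and 20 bases of intron in capitals, 5′ to 3′ along the gene, from the GENCODE M21 transcripts.
Nfkbie intron 2, start: cctttaccagGTGAGTAGAGAGAGAAGGCT
Nfkbie intron 2, end: TGACCCCTCTATGCCTACAGacagcactgc
Tnfaip3 intron 5, start: agtggacctgGTAAGAAAACATCAGTTCCT
Tnfaip3 intron 5, end: TTTTTTTTTTTCCCCTTCAGaacttcgcgc
Tnfaip3 intron 7, start: gaaaataagcGTGAGTGAAATCAGAGATTG
Tnfaip3 intron 7, end: TAGCATCCCCTCTTTTGTAGagtctgttac
Nfkbid intron 7, start: agtcctttcgGTATGTCCAGCTGGCAGACC
Nfkbid intron 7, end: CCTCTTCCTTCTCCTCCCAGgctgtgttta
They lie at chr17:45558598-45559207 (plus strand), chr10:19005732-19006862 and chr10:19003758-19004456 (both minus strand) and chr7:30425856-30425969 (plus strand), mm10. All 4 begin with GT and end with AG, and each lies between coding exons of the spliced transcript.

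In the other 4 genes the share rested on short transcripts. Bcl3 had 49.7% of TPM in replicate 1 and 50.4% in replicate 2, but 21.6% and 20.2% of counts. Its 2 transcripts of this class, Bcl3-202 and Bcl3-206, hold 320 of 7533 bases of intron 2 and 190 of 705 bases of intron 3. Tnip1 had 21.7% in replicate 1 and 26.6% in replicate 2, from Tnip1-209, which holds 186 of 3208 bases of intron 12 of 18 and took 4.66% and 4.79% of counts.
Nfkbid had 19.2% in replicate 1 and 27.0% in replicate 2, from Nfkbid-204, which holds the 114 bases of intron 7 of 11 and took 3.81% and 5.94% of counts. Nfkbia had the smallest share, 5.73% and 6.49%, and the part of Nfkbia-202 that is intronic is only 32 bases of intron 1. In this table, then, nearly all of the Nfkbia signal in the nucleoplasm was assigned to its coding transcript, Nfkbia-201. No listed transcript holds the rest of the Nfkbia introns, so this assignment does not show how much of the RNA was spliced.
The median share over the 6 genes was 35.7% in replicate 1 and 38.7% in replicate 2. Over 6517 genes with such a transcript it was 32.0% in replicate 1 and 32.95% in replicate 2. By counts the 6 genes' median was 13.1% in both libraries, and that of the 6517 genes 19.3% and 19.96%. The share of TPM was higher in replicate 1 in 0 of 6 genes, where 45.3% of the 6517 genes were higher in replicate 1. By counts it was higher there in 1 of 6, Bcl3, against 43.4% of the 6517 genes.

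The second quantification of the same reads changed several of these shares. It gave Nfkbie 68.1% in replicate 1 and 58.7% in replicate 2, and Tnfaip3 43.8% and 54.3%. Nfkbia had 28.4% and 27.55%, and Bcl3 23.7% and 17.4%. The share of TPM was then higher in replicate 1 in 5 of 6 genes, the exception being Tnfaip3, against 44.4% of the same 6517 genes. For shares of TPM the direction between the libraries thus depended on the quantification in all but that gene. By counts, the second quantification had 4 of 6 higher in replicate 1, against 43.0% of the 6517 genes. For shares of counts Bcl3 and Tnfaip3 kept their direction, and Nfkbia had 12.42% in both libraries of the second quantification.

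**Figure D3:**
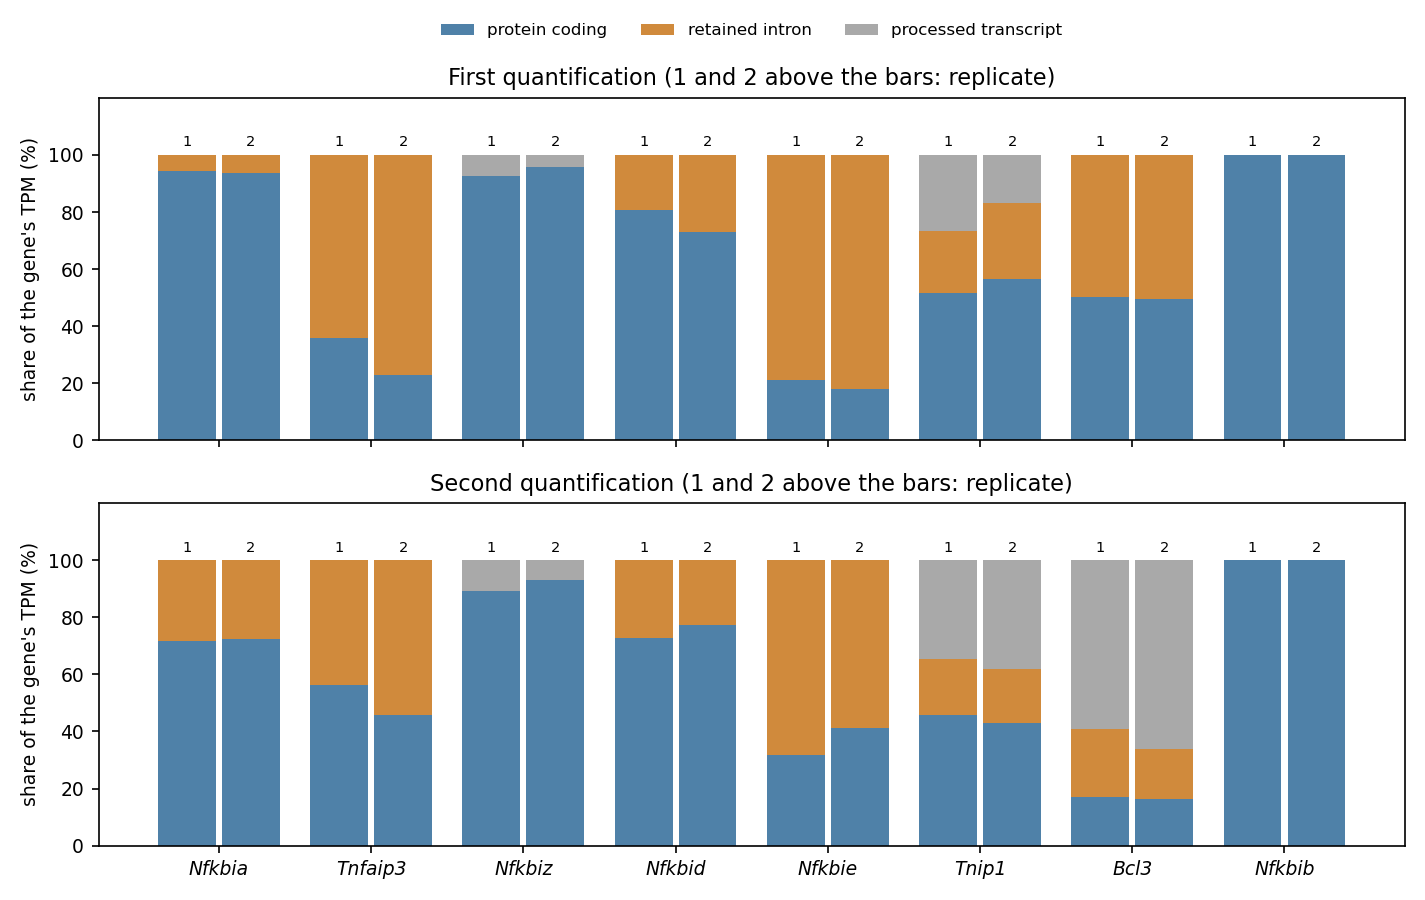
For each gene, the percent of its TPM held by protein coding, retained intron and processed transcript classes, in replicate 1 (left bar) and replicate 2 (right bar), for the first quantification (top) and the second (bottom). Nfkbie and Tnfaip3 hold the largest intron-retaining shares in both, and the Bcl3 bars change most between the 2 quantifications.

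Within some genes, transcripts from different annotated starts were assigned different levels, and the use of a start was not measured directly. In Nfkbiz, 92.1% of TPM in replicate 1 and 95.7% in replicate 2 lay on Nfkbiz-204, at 357 and 117 TPM. This transcript (3627 bases, 12 exons) starts 16761 bases inside the gene and has a coding length of 2184 bases, the same as Nfkbiz-201, which starts at the gene's first base and was listed at 0 in both libraries. Nfkbiz-203, which also starts there, had 1.52 TPM in replicate 1 against 0.18 TPM in replicate 2. The noncoding Nfkbiz-205, from the same first start, had 29.0 TPM in replicate 1 against 5.12 TPM in replicate 2. The second quantification also gave Nfkbiz-204 most of the TPM, 81.8% in replicate 1 and 88.5% in replicate 2.
In Tnfaip3, the coding transcript Tnfaip3-202, which starts 3694 bases inside the gene, had 90.3 TPM in replicate 1 against 22.8 TPM in replicate 2. Tnfaip3-201, from the upstream start and with the same coding length of 2325 bases, had 26.8 and 0.19 TPM. The intron-retaining Tnfaip3-205 starts in the same upstream exon, at base 281 of the gene against 247 for Tnfaip3-201. It had 96.9 TPM in replicate 1 and 43.1 TPM in replicate 2, above Tnfaip3-202 in both. In the second quantification Tnfaip3-205 had 35.99 and 29.13 TPM, above Tnfaip3-202 in replicate 2 only. The coding transcripts alone thus do not show which start was used more. The short coding fragment Tnfaip3-204 (456 bases) had 26.3 and 21.4 TPM, and 112 and 79.0 TPM in the second quantification. Nfkbid has 3 starts. Nfkbid-203, from the first, had 68.2 TPM in replicate 1 and 21.1 TPM in replicate 2, and Nfkbid-201, from the last, had 24.4 and 18.95 TPM. Nfkbid-202, whose start is the one with the promoter match printed above, was listed at 0 in both libraries but at 30.9 and 19.3 TPM in the second quantification, so the use of this start could not be settled from these tables.

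**Figure D4:**
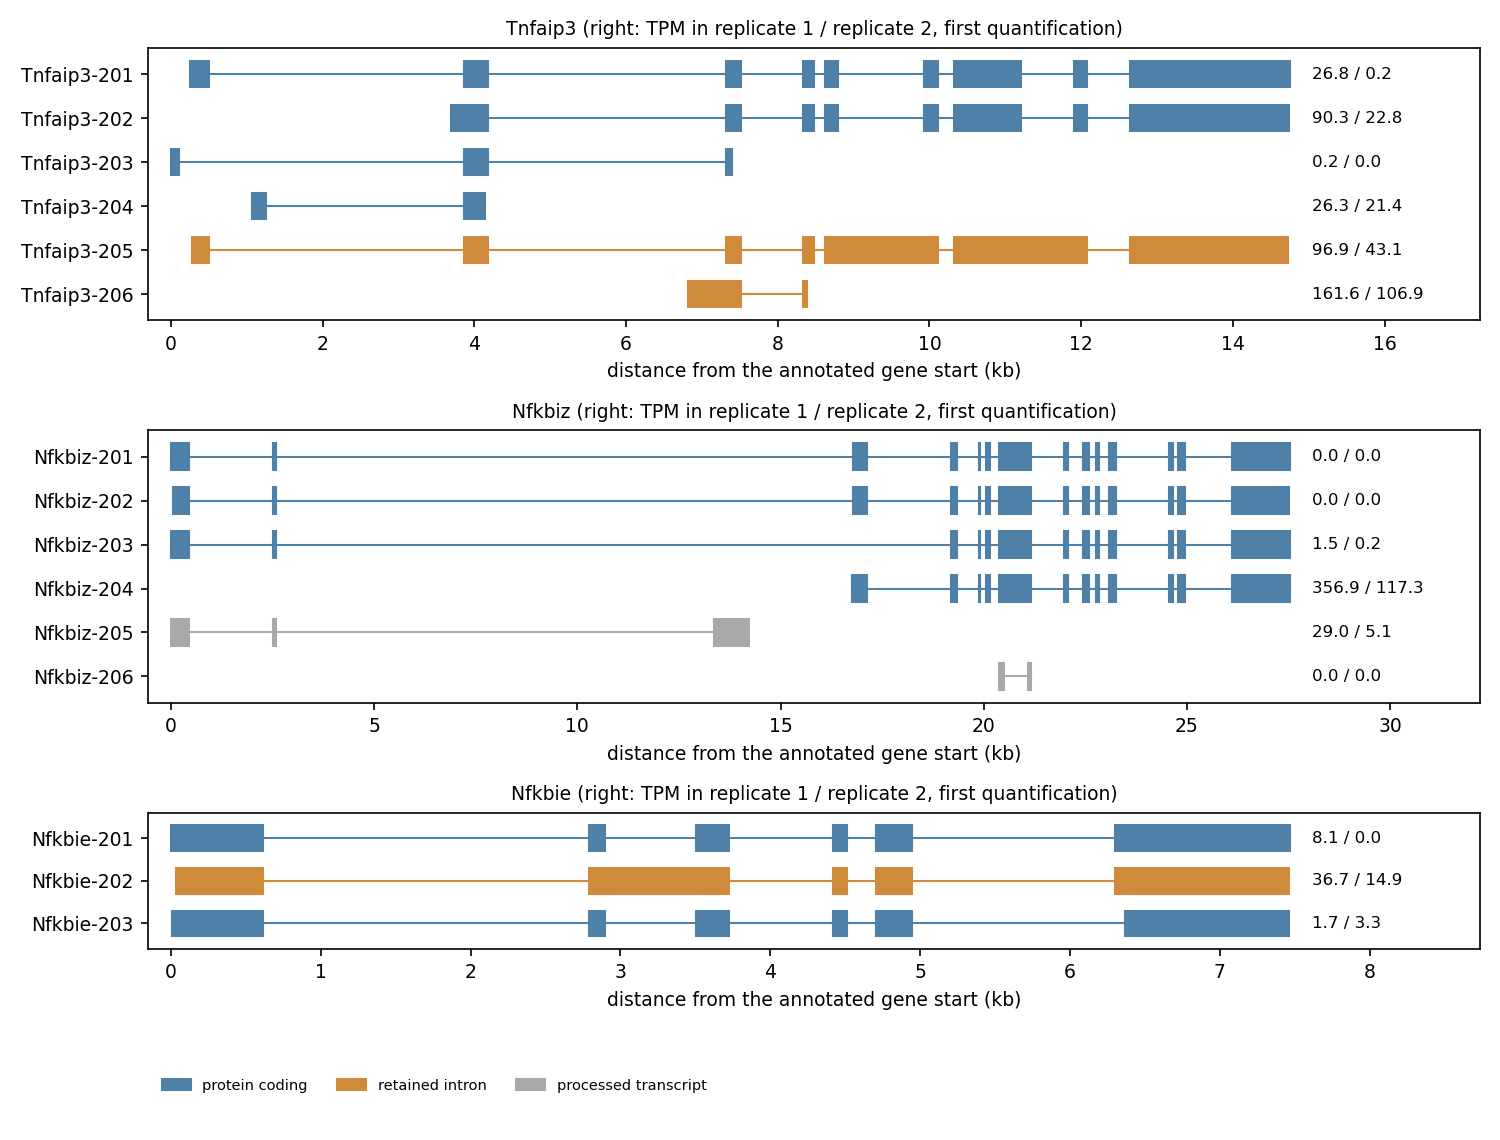
Annotated transcripts of Tnfaip3, Nfkbiz and Nfkbie, with exons as boxes and introns as lines against distance from the gene start in kb, and TPM in replicate 1 and replicate 2 of the first quantification at the right. Tnfaip3-205 and Nfkbie-202 show merged exons where they retain introns, and Nfkbiz-204, the main Nfkbiz transcript, starts 16761 bases inside the gene.

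How far the levels rest on the quantification was seen from gene sums of the second table over the first. Summed over the 8 genes, the second table gave 1065 TPM in replicate 1 and 777 TPM in replicate 2, and the first 1660 and 619 TPM, so the ratio of replicate 1 over replicate 2 was 1.37-fold in the second and 2.68-fold in the first. On the log2 scale, the second table stood at a median of -0.44 relative to the first for the 8 genes in replicate 1 and at 0.33 in replicate 2. The median of all genes was -0.95 in replicate 1, over 12382 genes, and -0.0377 in replicate 2, over 12862. Relative to those medians the 8 genes were higher in the second table, by 0.51 and 0.37. Relative to the same medians Bcl3 moved furthest of the 8, by 1.39 in replicate 1 and 1.65 in replicate 2, with 44.9 and 41.0 TPM in the second table, against 33.2 and 13.4 TPM in the first. Without that centring its ratio in replicate 1 was 0.44, and Nfkbie had the largest change there, -1.23. In the second table Bcl3-204 and Bcl3-205, short processed transcripts listed at 0 in the first table, had 14.2 and 12.4 TPM in replicate 1 and 22.4 and 4.78 TPM in replicate 2. Nfkbie was the one member lower in the second table in both libraries, at 19.9 and 17.1 TPM in the second and 46.55 and 18.2 TPM in the first.

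The 2 gene tables held 18194818 counts in replicate 1 and 18667509 in replicate 2. The labelled cell type was checked against marker genes. All 10 macrophage markers were above 1 TPM in both libraries, with a sum of 3774 TPM in replicate 1 and 3447 TPM in replicate 2. Neutrophil markers summed to 6.41 and 8.94 TPM, with 1 of 10 at 1 TPM in both, dendritic cell markers to 3.28 and 2.83 TPM (1 of 6), B cell markers to 0.43 and 0.63 TPM (0 of 6), T and NK cell markers to 0.36 and 0.06 TPM (0 of 7) and erythroid markers to 0.18 and 0.46 TPM (0 of 6). Markers at 0 counts in both libraries included Ly6g, Retnlg, Pax5, Cd3e, Cd3g, Ncr1, Klrb1c, Hbb-bs and Hbb-bt. In the second quantification Cd3d was listed at 2.90 TPM in replicate 1 against 9.43 TPM in replicate 2, and the other T cell genes Cd8a and Cd3g at 1.60 TPM or less.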

How the data were processed

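Nucleoplasmic, ribosomal RNA-depleted RNA of 2 libraries of 1 group was analysed from 3 deposited tables per library. In the first quantification, a gene and a transcript table hold deposited expected counts, TPM, FPKM and posterior-mean TPM, under the column names of RSEM, per the file headers. The second quantification is a transcript table of deposited TPM and estimated counts, under the column names of kallisto, per the file headers. Build mm10 and annotation M21 are named in the notes deposited beside the tables. The sources used here do not give program versions, filters or the strand setting.

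The members and lists were chosen with earlier results of these data known. All 8 members, and of each pathway list the highest, the lowest and each gene past 2-fold, are named. The units were as assumed. Numbered, spike-in and phiX entries (151017 counts in replicate 1 and 38710 in replicate 2) stayed out of library sizes. With totals of 18194818 and 18667509, 3 counts, taken as the limit for a gene at 0, equal 0.165 and 0.161 CPM. Without molecular identifiers, reads are not independent molecules, and such limits and intervals hold counting error alone.

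After rounding to whole numbers, expected counts were scaled with edgeR 4.0.16 (TMM, R 4.3.3), with a prior count of 0.5. Genes whose mean scaled count reached 10 were set against a 2-fold limit, a step tested on simulated data. Alternatives were the second quantification, FPKM, posterior-mean TPM, other limits, library totals, size factors of DESeq2 1.42.0 and TPM ratios with a pseudocount of 0.1. The 2-fold counts with a GC trend removed (lowess, span 0.3, statsmodels 0.14.6) or a prior count of 5 were added after seeing the data. Intron classes come from GENCODE M21, and promoter windows from RefSeq (GRCm38.p6). Figures were drawn with matplotlib 3.10.9, and tables made with pandas 2.3.3, scipy 1.17.1 and numpy 2.4.6 in Python 3.11.15. No test between conditions was possible with 1 group. The value of 1 marker gene is not reported here.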

Additional observations from a re-analysis of the deposited data

How the results depend on the processing

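The median level of the 8 genes, 58.6 ± 31.1 TPM (SD, n = 2), lay between 36.6 and 80.55 TPM when either replicate was left out, and was 225 TPM when rescaled over nuclear-encoded protein-coding genes only, a scale with a smaller sum by construction. The members' log2 ratio of replicate 1 over replicate 2 had a median of 1.05, and of 1.14 with library totals, 1.32 with TPM ratios and 0.79 with the GC trend taken out. Past 2-fold stood 4 of 8 genes, against 3.98% of all tested genes, a share given in parentheses for the other settings. It was 3 with the GC trend taken out (3.53%), 5 with DESeq2 size factors (4.38%) and 5 with library totals (5.07%). In the second quantification it was 6 (4.54%), and with TPM ratios 8 (10.1%). At 1.5-fold it was 7 (11.2%). The per-gene ratios kept their direction in all 48 recomputed values, with the widest range in Tnip1, 0.31 to 1.24. The median intron-retaining share, 37.1% of TPM, was 12.9% of counts and 26.5% in the second quantification, and 35.7% to 38.7% when either replicate was left out. The tighter promoter letters lowered the genes with a match to 2 of 7. The causes of these shifts were not tested. No paired analysis was possible because there is 1 group. Depth limits the low members most: Nfkbib rests on 216 counts in replicate 2 and its interval spans the 2-fold limit, as do those of Nfkbie and Bcl3.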
